A study of Drosophila melanogaster with 8 samples.

Results

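RNA levels were compared between fly heads that express the dipeptide repeat PR36 in neurons and heads that express PA36, the control repeat in the labels. PR36 flies (Elav>PR36) carry a proline-arginine repeat of 36 units, PA36 flies (Elav>PA36) carry a proline-alanine repeat of the same length, and both are driven by the pan-neuronal Elav driver. The members are 4 libraries, 2 of PR36 and 2 of PA36, out of 8 samples in the series. They were chosen by their labels alone, as the columns named for PR36 and PA36 in the deposited table. The other genotypes of the series are (G4C2)36, which expresses the repeat RNA, and UPF1 RNAi, a knockdown of an mRNA decay factor, both again under Elav. Of these, 2 (G4C2)36 libraries and 1 UPF1 RNAi library entered the fits, and the second UPF1 RNAi library is not analysed here.

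All flies were female, aged 5 days and reared at 24 °C with 60% humidity. By the labels, 2 replicates came from 40 heads in total for each genotype, so every library pools animals. Whether the replicates are separate crosses or vials is not stated, so the p-values cover only the spread between these libraries, part of which may be technical. Each genotype is represented by 1 transgene, and the labels used here give no insertion site or strain background, so the repeat and the line that carries it cannot be told apart. A whole head holds neurons, photoreceptors, glia, fat body, muscle and other cells, while the driver acts in neurons.

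Proline-arginine and proline-alanine dipeptides are both translated from the GGGGCC repeat expansion of the C9orf72 gene, the most common inherited cause of amyotrophic lateral sclerosis and frontotemporal dementia. Arginine-rich dipeptides bind nucleoli, RNA-binding proteins and ribosomes and are toxic in fly neurons, whereas the uncharged proline-alanine repeat is commonly used as a control of the same length. Nonsense-mediated mRNA decay (NMD), which the Upf and Smg proteins carry out, removes transcripts with premature stop codons and a number of intact ones.

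Levels are TPM, which scale each transcript for its length and each library for its size, and a gene's level here is the sum of its listed transcripts. TPM keep no read number, so sequencing depth is unknown and counting intervals cannot be given. Listed TPM summed to 744734 and 821172 in the PR36 libraries, against 765526 and 747840 in the PA36 libraries. They summed to 877933 and 769828 in (G4C2)36 and to 712972 in UPF1 RNAi. TPM by definition sum to 1000000 in a library, so a part of each library, unequal in size, lies outside the listed transcripts. Genes were tested with limma on log2(TPM + 1) over 7 libraries, where a gene counts as called with an adjusted p below 0.05. On this scale the change of a gene with low TPM is understated.

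Head markers were present, and the listed ovary, germline and male markers were low. The neuronal gene nSyb, a synaptic vesicle protein, had 763 and 833 TPM in PR36 heads, against 609 and 765 in PA36 heads. The rhodopsin ninaE had 22147 and 25148 TPM in PR36, against 24224 and 25825 in PA36. Ovary and germline markers together reached at most 2.91 TPM in any PR36 or PA36 library, and male markers at most 3.89 TPM. These sums cover only the 8 of 16 ovary and germline markers and 4 of 9 male markers that are listed. Gut digestive enzymes (11 of 19 listed) summed to 4.35 and 12.1 TPM in PR36, against 10.8 and 12.0 in PA36. In (G4C2)36 they summed to 37.3 and 62.2 TPM. Among the head cell type lists, the summed fat body and yolk markers varied most, with 63409 and 60491 TPM in PR36, against 77113 and 39860 in PA36. In whole heads, fewer cells of a type and less RNA per cell cannot be told apart.

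At gene level, few differences passed the test, and several of them were near-complete. Vermilion, calnexin, Arc1, formaldehyde dehydrogenase, the kinase S6kII and eclosion hormone were among the genes higher in PR36. Cathepsin L (Cp1), the Hippo kinase warts and the Hedgehog regulator Su(fu) were among those lower. Of 9287 genes tested, 18 were called (0.194%), 10 higher in PR36 (0.108%) and 8 lower (0.0861%). An unadjusted p below 0.05 was reached by 315 genes (3.39%), a smaller share than that threshold allows without any difference. PR36 and PA36 libraries did not overlap in 3131 genes (33.7%). That is about the share that 2 libraries a side give without any difference, so a lack of overlap in a single gene says little. Of all genes tested, 27.0% had PR36 higher without overlap and 6.72% had PR36 lower. That imbalance depended on the scaling, since the shares were 15.9% higher and 15.6% lower after median-of-ratios rescaling, and 16.4% higher and 14.5% lower after quantile normalization. In the same fit, 22 genes differed between PR36 and (G4C2)36 (0.237%) and 40 between PR36 and UPF1 RNAi (0.431%). UPF1 RNAi has 1 library in the fit, so every p against it takes its spread from the other genotypes alone and assumes that UPF1 RNAi varies like them. Over all genes tested, the log2 fold changes had a median of 0.13 as deposited and 0.01 after median-of-ratios rescaling. Of the 18 genes called against PA36, 7 were also called between PR36 and (G4C2)36. These are CG18731, CG42673, CG7084, Eh, Su(fu), mir-281-2 and wts. By biotype, 15 of the 18 are protein-coding and 3 are noncoding. Chromosome arm 3R holds 8 of them, beside 24.4% of genes tested, and arm 2L holds 0, beside 17.5% of genes tested.

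The metabolic gene vermilion (v) encodes tryptophan 2,3-dioxygenase, which makes the first intermediate of the brown eye pigment. It had 51.3 and 47.6 TPM in PR36 heads, against 3.64 and 2.77 in PA36 heads. Both PR36 libraries lay far above both PA36 libraries, with means of 49.5 ± 2.58 TPM in PR36 and 3.21 ± 0.62 TPM in PA36 (SD, n = 2 each). The log2 fold change was 3.59 (SE 0.22, limma adjusted p = 0.00299). The gene lies at X:10923972-10925631 (BDGP6). Its level in the other genotypes was close to the PR36 level, with 43.5 and 38.7 TPM in (G4C2)36 and 40.4 in UPF1 RNAi, and PR36 over (G4C2)36 gave a log2 fold change of 0.26 (limma adjusted p = 1).

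Fdh encodes a glutathione-dependent formaldehyde dehydrogenase, which also breaks down S-nitrosoglutathione. It had 53.4 and 74.3 TPM in PR36, against 12.0 and 9.24 in PA36 (log2 fold change 2.47 ± 0.26 SE, adjusted p = 0.0181 by limma). The libraries did not overlap. Here the other genotypes stood above PR36, with 120 and 93.9 TPM in (G4C2)36 and 122 in UPF1 RNAi.

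Among genes of protein folding and signalling, Cnx99A encodes calnexin, a chaperone of glycoproteins in the endoplasmic reticulum (ER) that fly photoreceptors need to mature rhodopsin. It had 86.7 and 116 TPM in PR36, against 7.90 and 10.1 in PA36 (log2 fold change 3.35 ± 0.35 SE, adjusted p = 0.0181 by limma), and lies at 3R:29315254-29319644. The other genotypes again had PR36-like levels, 106 and 53.3 TPM in (G4C2)36 and 129 in UPF1 RNAi. S6kII encodes a kinase that acts downstream of ERK. It had 11.7 and 16.1 TPM in PR36, against 1.10 and 0.955 in PA36 (log2 fold change 2.86 ± 0.32 SE, adjusted p = 0.0232 by limma). S6kII lies within CG17600 on the same strand, so reads of the pair can be hard to assign. CG17600 had 12.5 and 13.8 TPM in PR36, against 10.9 and 10.7 in PA36.

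The called genes also include Arc1 and Eh, which act in neurons. Arc1 encodes a capsid-forming protein of retrotransposon origin that carries its own mRNA between cells at the fly neuromuscular junction. It had 156 and 142 TPM in PR36, against 23.8 and 29.8 in PA36, with means of 149 ± 10.3 TPM in PR36 and 26.8 ± 4.28 TPM in PA36 (SD, n = 2 each). The log2 fold change was 2.44 (SE 0.24, limma adjusted p = 0.0172). The libraries did not overlap, and Arc1 has a single listed transcript, at 2R:14357927-14360297. Values in the other genotypes lay between, at 113 and 83.8 TPM in (G4C2)36 and 62.7 in UPF1 RNAi.

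Eh encodes eclosion hormone, a peptide that triggers shedding of the old cuticle. It was listed at 16.8 and 17.5 TPM in PR36, against 0.893 and 0 in PA36 (log2 fold change 3.72 ± 0.38 SE, adjusted p = 0.0175 by limma). Both (G4C2)36 libraries were listed at 0 and UPF1 RNAi at 27.7 TPM. Against (G4C2)36, PR36 was higher by 4.18 on the log2 scale (limma adjusted p = 0.00672).

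The remaining called genes that were higher in PR36 are less well known or noncoding. CG18731 (3R:29725027-29725690) was listed at 15.8 and 17.9 TPM in PR36 (limma adjusted p = 0.0135) and at 0 in both PA36 libraries. It was also listed at 0 in both (G4C2)36 libraries, from which PR36 differed too (limma adjusted p = 0.00564), and in the single UPF1 RNAi library (limma adjusted p = 0.0133). CG32091 was listed at 11.5 and 12.8 TPM in PR36 (limma adjusted p = 0.0167) and at 0 in both PA36 libraries, while the other genotypes had 18.1, 9.498 and 7.68 TPM.

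CG7084 (3R:22298805-22304420) had 21.0 and 36.5 TPM in PR36, against 2.37 and 2.35 in PA36 (log2 fold change 3.10 ± 0.34 SE, adjusted p = 0.0206 by limma). Levels in the other genotypes were close to those in PA36, and PR36 exceeded (G4C2)36 by 2.97 (limma adjusted p = 0.0228) and the single UPF1 RNAi library by 3.10 (limma adjusted p = 0.0361) on the log2 scale. The microRNA gene mir-281-2 (2R:12170153-12170244) had 24.9 and 36.9 TPM in PR36, against 1.70 and 2.27 in PA36 (log2 fold change 3.40 ± 0.34 SE, adjusted p = 0.0175 by limma). It lies within Oda, the ornithine decarboxylase antizyme gene, which had 1358 and 1365 TPM in PR36, against 1349 and 1223 in PA36. A short gene inside a strongly expressed one can take its reads, and the share of such reads was not tested.

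**Figure D1:**
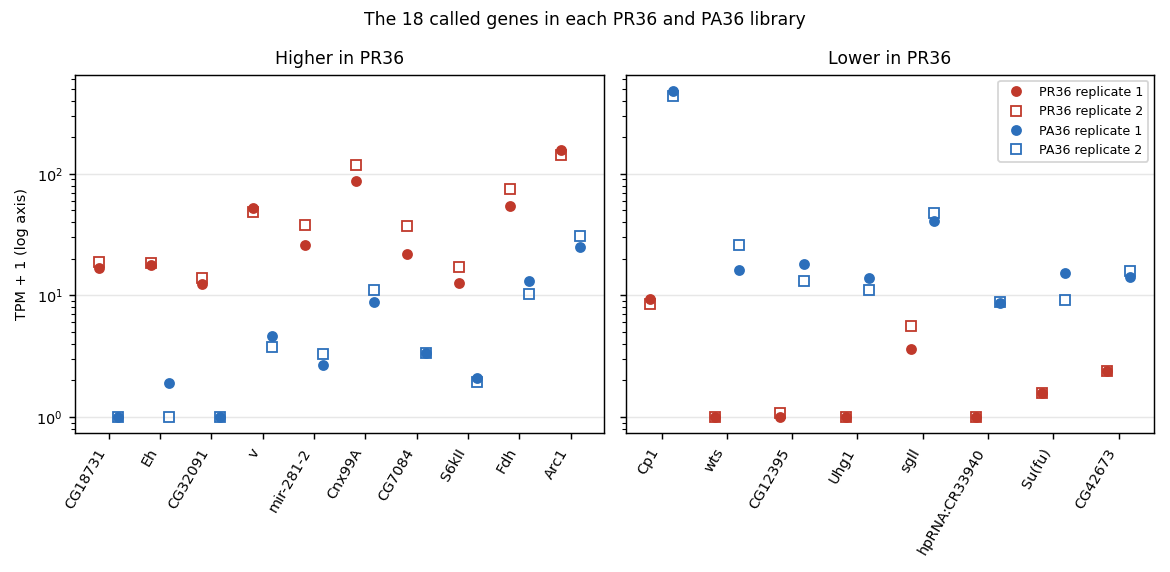
The plot shows TPM + 1 on a log axis for the 18 called genes, with PR36 libraries in red left of PA36 libraries in blue, filled circles for replicate 1 and open squares for replicate 2. Replicates of a genotype lie close together for each gene, as for v with 51.3 and 47.6 TPM in PR36, against 3.64 and 2.77 in PA36.

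Of the genes lower in PR36, Cp1 had the most negative log2 fold change. It encodes cathepsin L, a lysosomal cysteine protease, and had 8.32 and 7.43 TPM in PR36, against 480 and 432 in PA36. Means were 7.88 ± 0.629 TPM in PR36 and 456 ± 33.5 TPM in PA36 (SD, n = 2 each). The log2 fold change was -5.69 (SE 0.28, limma adjusted p = 0.00117). The other genotypes had PR36-like values of 8.39, 4.76 and 11.4 TPM. Of its 4 reference transcripts 3 are listed, and the gene (2R:13960675-13967981) overlaps CG42806 on the same strand, which had 22.1 and 48.6 TPM in PR36, against 12.95 and 20.7 in PA36.

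Signalling genes of the Hippo and Hedgehog pathways followed. The kinase gene warts (wts), which restrains the growth coactivator Yorkie, was listed at 0 in both PR36 libraries, against 15.1 and 24.8 TPM in PA36 (limma adjusted p = 0.00865). It had 29.1 and 21.8 TPM in (G4C2)36, from which PR36 also differed (limma adjusted p = 0.00195), and was listed at 0 in UPF1 RNAi. Su(fu), an inhibitor of Hedgehog signalling that binds the transcription factor Ci, had 0.584 and 0.586 TPM in PR36, against 14.1 and 8.12 in PA36 (log2 fold change -2.89 ± 0.34 SE, adjusted p = 0.0327 by limma). Its pattern over the other libraries was like that of wts, with 20.4 and 14.5 TPM in (G4C2)36 and 0.738 in UPF1 RNAi. Of both genes 1 transcript is listed. They lie apart on arm 3R, wts at 30789625-30806619 and Su(fu) at 12689873-12691468.

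The gene sgll encodes the oxidase that makes pyridoxal phosphate, the active form of vitamin B6. It had 2.63 and 4.63 TPM in PR36, against 39.7 and 46.5 in PA36 (log2 fold change -3.28 ± 0.31 SE, adjusted p = 0.0167 by limma). CG42673 had 1.39 and 1.41 TPM in PR36, against 13.1 and 14.8 in PA36 (log2 fold change -2.64 ± 0.23 SE, adjusted p = 0.0135 by limma). It was also lower in PR36 than in (G4C2)36, by 3.02 on the log2 scale (limma adjusted p = 0.00265), and lay 2.79 below the single UPF1 RNAi library (limma adjusted p = 0.0113).

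The last of the lower genes were listed in PA36 and almost nowhere else. CG12395 was listed at 0 and 0.0797 TPM in PR36, against 17.0 and 12.1 in PA36 (limma adjusted p = 0.0175). Uhg1, a host gene of small nucleolar RNAs, stood at 0 in each PR36 library, against 13.02 and 10.02 TPM in PA36 (limma adjusted p = 0.0181). The hairpin RNA gene hpRNA:CR33940 stood at 0 in each PR36 library, against 7.66 and 7.74 TPM in PA36 (limma adjusted p = 0.0416). All 3 were listed at 0 in (G4C2)36 and UPF1 RNAi. Uhg1 overlaps CG46315 and CG6424, both on the opposite strand, by 10 bases each. CG46315 had 59.6 and 60.0 TPM in PR36, against 16.2 and 5.79 in PA36. CG6424 had 135 and 151 TPM in PR36, against 228 and 182 in PA36.

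Each of these calls rests on 2 libraries a side. Without PA36 replicate 1, Uhg1 (limma adjusted p = 0.0504), Su(fu) (0.054) and hpRNA:CR33940 (0.09) were not called, and without PA36 replicate 2 hpRNA:CR33940 was not (0.073). The total rose when a library was left out, to 46 genes without PR36 replicate 1, 60 without PR36 replicate 2, 51 without PA36 replicate 1 and 57 without PA36 replicate 2. A library left alone in its genotype is then assumed to vary like the other genotypes. An exact 0 can be a failed estimate in 1 library, since PA36 replicate 1 alone was listed at 0 in 12 genes that had at least 5 TPM in the 6 other libraries. LanA, chinmo, eIF4G2 and trol are among these 12, and the same held for 4 genes in PR36 replicate 1, 2 in PR36 replicate 2 and 2 in PA36 replicate 2.

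At transcript level, most of the differences belonged to genes whose total was not called. Of 15794 transcripts tested, 50 were called (0.317%), 26 higher in PR36 (0.165%) and 24 lower (0.152%). They belong to 43 genes, and 10 of the 50 lie in genes called as a whole. An unadjusted p below 0.05 was reached by 649 transcripts (4.11%), again a smaller share than the threshold allows without any difference. PR36 differed from (G4C2)36 in 70 transcripts (0.443%) and from the single UPF1 RNAi library, which has no spread of its own, in 116 (0.734%). Of the called transcripts, 14 were listed at 0 in both libraries of a genotype. The count depended on single libraries, at 0 without PR36 replicate 1 (744 at an unadjusted p below 0.05), 7 without PR36 replicate 2, 43 without PA36 replicate 1 and 0 without PA36 replicate 2 (972 at an unadjusted p below 0.05). Of the 50 transcripts, only 2 were among those 7 and 8 among those 43.

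Ubc6 encodes a ubiquitin-conjugating enzyme, and its transcript FBtr0306106 had the highest log2 fold change. It had 177 and 193 TPM in PR36, against 0.465 and 0.520 in PA36 (log2 fold change 6.96 ± 0.25 SE, adjusted p = 0.00578 by limma). The other 3 libraries had 0.308 to 0.406 TPM, and PR36 exceeded (G4C2)36 by 7.11 (limma adjusted p = 0.00484) and the single UPF1 RNAi library by 7.05 (limma adjusted p = 0.00899) on the log2 scale. The gene as a whole (3R:4948755-4952682) had 230 and 259 TPM in PR36, against 132 and 125 in PA36, a log2 fold change of 0.92 (limma adjusted p = 0.349). The transcript made up 76.9% and 74.7% of the gene in PR36, against 0.353% and 0.418% in PA36. It shares its start and its coding sequence length of 453 bases with FBtr0078849, and their ends lie 1024 bases apart.

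The transcript next in order, FBtr0339097 of CG44247, had 97.97 and 130 TPM in PR36, against 0.207 and 0.314 in PA36 (log2 fold change 6.50 ± 0.26 SE, adjusted p = 0.0065 by limma). UPF1 RNAi had 129 TPM of it and (G4C2)36 had 0.190 and 0.169 TPM. FBtr0303895 of Ggamma30A, which encodes a G protein gamma subunit of photoreceptors, was listed at 74.3 and 41.6 TPM in PR36 (limma adjusted p = 0.017) and at 0 in both PA36 libraries. It made up only 11.7% and 1.94% of the gene in PR36, and its transcript use was not called (diffSplice adjusted p = 0.946). The Ggamma30A total was 636 and 2144 TPM in PR36, against 1639 and 1629 in PA36. FBtr0079603 of CG14275 was listed at 49.7 and 55.5 TPM in PR36 (limma adjusted p = 0.0102) and at 0 in both PA36 libraries. However, the CG14275 gene had 38.2 TPM from other listed transcripts in PA36 replicate 1, and in PA36 replicate 2 the whole gene was listed at 0. Its transcript use was not called (diffSplice adjusted p = 0.192). FBtr0303895 and FBtr0079603 were both present in (G4C2)36 and listed at 0 in UPF1 RNAi.

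Others among the 10 highest had low but nonzero values in PA36. FBtr0346463 of CG8498 had 41.1 and 50.6 TPM in PR36, against 0.017 and 0.0082 in PA36 (log2 fold change 5.52, limma adjusted p = 0.0102). FBtr0335197 of CG5778 had 49.9 and 29.5 TPM in PR36, against 0.0368 and 0.422 in PA36 (log2 fold change 5.02, limma adjusted p = 0.0404). For both, UPF1 RNAi was near PR36, with 33.5 TPM and 26.8 TPM, and (G4C2)36 stayed at or below 1.10 TPM. FBtr0080880 of CG5888 was listed at 18.5 and 24.3 TPM in PR36 (limma adjusted p = 0.028) and at 0 in the 5 other libraries.

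Among transcripts lower in PR36, that of Cp1 stood out. Its transcript FBtr0087592 stood at 0 in each PR36 library, against 472 and 428 TPM in PA36 (limma adjusted p = 0.00511), and at 0 in (G4C2)36 and UPF1 RNAi. It made up 98.4% and 99.0% of the Cp1 gene in PA36. FBtr0344381 of glob1, a globin gene, had 0.047 and 0.245 TPM in PR36, against 82.9 and 79.3 in PA36 (log2 fold change -6.17 ± 0.21 SE, adjusted p = 0.00578 by limma). The glob1 gene had 143 and 154 TPM in PR36, against 224 and 207 in PA36, and its other main transcripts were listed at similar levels in both genotypes.

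A further gene of interest for mRNA decay is eRF1, which encodes the release factor that ends translation at stop codons. Its transcript FBtr0078173 stood at 0 in each PR36 library, against 54.8 and 66.0 TPM in PA36 (limma adjusted p = 0.0124), and FBtr0331817 stood at 0 in each PR36 library, against 14.6 and 26.3 TPM in PA36 (limma adjusted p = 0.0367). Both were listed in every (G4C2)36 and UPF1 RNAi library. Another transcript, FBtr0078174, had 53.9 and 57.5 TPM in PR36, against 9.20 and 0.973 in PA36. The eRF1 total was 82.7 and 91.2 TPM in PR36, against 96.4 and 104.02 in PA36.

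Others of the 10 lowest came from genes of metabolism and transport. FBtr0345029 of CG2162 had 0.178 and 0.374 TPM in PR36, against 45.2 and 48.6 in PA36 (log2 fold change -5.23, limma adjusted p = 0.013). FBtr0071014 of CG4607 had 0.255 and 0.726 TPM in PR36, against 36.7 and 35.5 in PA36 (log2 fold change -4.65, limma adjusted p = 0.0124). FBtr0343561 of the glial glutamine synthetase gene Gs2 was listed at 0 and 0.513 TPM in PR36, against 31.4 and 26.2 in PA36 (limma adjusted p = 0.0296). The Gs2 gene as a whole was not called, at 869 and 1105 TPM in PR36, against 563 and 596 in PA36 (log2 fold change 0.76, limma adjusted p = 0.662).

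Transcript use compares each transcript with the others of its gene and so separates a change of make-up from a change of the total. Of 10143 transcripts in 3566 genes, 111 were called with limma's diffSplice (1.09%), 49 with a larger and 62 with a smaller share in PR36, in 67 genes (1.88% of genes). An unadjusted p below 0.05 was reached by 559 transcripts. The test pools the spread over a gene's transcripts, so its p-values rest on more residuals than libraries. Without 1 library at a time the count was 198 to 262, of which 72 to 80 were among the 111.

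In 39 genes, called transcripts moved in both directions, and in 33 of these a pair traded order, so that the transcript in front in both PR36 libraries was behind in both PA36 libraries. The gene total of 29 of the 33 differed by less than 1 on the log2 scale, with a median absolute log2 fold change of 0.33, and 2 of the genes were called as a whole, Cp1 and CG42673. In 23 pairs the reference annotation gives both transcripts the same coding sequence, so that they differ in untranslated parts, and in 10 pairs the coding sequences differ. The transcripts of 18 pairs share their end and those of 11 share their start. A trade can be between near-identical transcripts whose reads are assigned by an estimate, and the part of that in these values was not tested.

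Tapdelta encodes a subunit of the translocon-associated complex, through which new proteins enter the ER. Its transcript FBtr0088153 had 149 and 137 TPM in PR36, against 1.98 and 1.19 in PA36 (log2 fold change 5.81, limma adjusted p = 0.013). FBtr0345952 had 0.0493 and 0.0207 TPM in PR36, against 110 and 86.2 in PA36 (log2 fold change -6.57, limma adjusted p = 0.00954). Within the gene (2R:11370300-11371335), the exchange was close to complete, with an adjusted p of 9.9e-06 from limma's diffSplice. The transcripts start 172 bases apart, share their end and encode 498 bases each. Both (G4C2)36 libraries had the PA36 form and UPF1 RNAi had the PR36 form, while the gene total was 149 and 137 TPM in PR36, against 112 and 87.4 in PA36.

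The importin gene cdm (3R:18179275-18183479) traded transcripts whose ends lie 438 bases apart. FBtr0083619 had 49.4 and 52.8 TPM in PR36, against 0.741 and 1.45 in PA36 (log2 fold change 4.66, limma adjusted p = 0.017). FBtr0336472 had 0.621 and 0.400 TPM in PR36, against 32.0 and 43.5 in PA36 (log2 fold change -4.67, limma adjusted p = 0.0157). Here both (G4C2)36 libraries had the PR36 form and UPF1 RNAi the PA36 form, the opposite of Tapdelta. Vha44, a subunit of the vacuolar proton pump, was listed with FBtr0290031 at 56.7 and 71.4 TPM in PR36, against 2.17 and 1.72 in PA36 (log2 fold change 4.46, limma adjusted p = 0.0192). Its FBtr0290032 had 1.15 and 0.951 TPM in PR36, against 58.2 and 50.2 in PA36 (log2 fold change -4.75, limma adjusted p = 0.0102), and the other 3 libraries had the PA36 form.

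Genes that act on RNA and translation were among those that traded transcripts. Cbp80, the large subunit of the nuclear cap-binding complex, had 12.97 and 16.9 TPM of FBtr0070684 in PR36, against 0.109 and 0.0995 in PA36 (diffSplice adjusted p = 0.000164). FBtr0070683 of the same gene had 1.06 and 0.285 TPM in PR36, against 12.8 and 18.7 in PA36. Gcn2, a kinase of the translation factor eIF2 that senses amino acid shortage, had 8.52 and 9.94 TPM of FBtr0334551 in PR36, against 0.583 and 0.383 in PA36 (diffSplice adjusted p = 0.000208). For both genes the coding sequence of the pair is the same, the (G4C2)36 libraries had the PR36 form and UPF1 RNAi had the PA36 form.

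RpL18, a ribosomal protein gene, had FBtr0333370 at 344 and 117 TPM in PR36, against 7.25 and 1.08 in PA36 (diffSplice adjusted p = 0.00518). FBtr0345036 had 6.12 and 2.41 TPM in PR36, against 274 and 2037 in PA36 (diffSplice adjusted p = 0.00113). The libraries of a genotype differed by several-fold, and neither transcript was called on its own (limma adjusted p = 0.166 and 0.127). The gene total was 1850 and 2170 TPM in PR36, against 2349 and 2341 in PA36.

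Nup62, a nuclear pore protein gene, is one of the 6 genes whose called transcripts moved both ways without trading order. FBtr0087150 stood at 0 in each PR36 library, against 8.24 and 9.02 TPM in PA36 (diffSplice adjusted p = 0.00071). FBtr0340060 had 18.5 and 26.4 TPM in PR36, against 9.86 and 10.8 in PA36. Both have the same coding sequence, of 1182 bases.

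**Figure D2:**
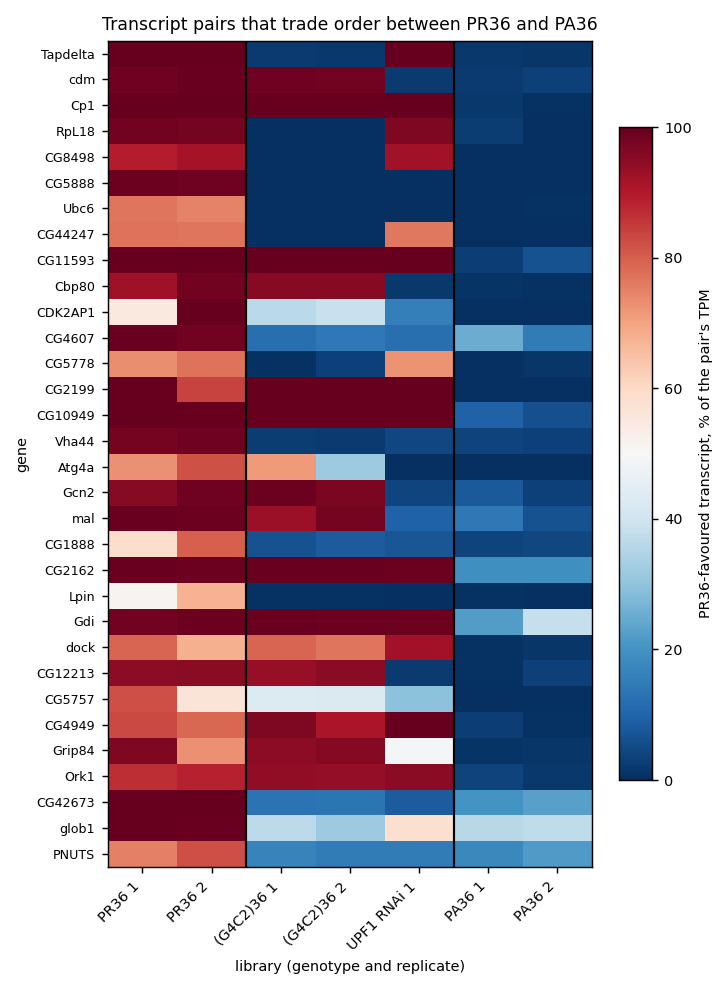
Each cell of the heat map is the share, in percent, that the PR36-favoured transcript takes of the TPM of its pair, for 32 of the 33 genes (down the page) in 7 libraries (across), with PR36 on the left and PA36 on the right. For Ubc6 the PR36 libraries stand alone, whereas for Cp1 and CG11593 the (G4C2)36 and UPF1 RNAi libraries have the same form as PR36.

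PR36 and PA36 were also set against each other within replicate number, since replicate 1 of both genotypes had high heat shock genes. This comparison has 1 library a side and no test. Differences past 1 on the log2(TPM + 1) scale were found in 349 genes higher and 299 lower for PR36 replicate 1 over PA36 replicate 1. For replicate 2 they were found in 351 genes higher and 235 lower. Only a minority recurred, with 120 genes past 1 in both (1.29% of genes tested), 66 higher (0.711%) and 54 lower (0.581%), while 78 moved past 1 in opposite directions.

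Between replicates of 1 genotype, 603 genes differed past 1 in PR36 and 678 in PA36. Across genes, which are not independent replicates, the PR36 minus PA36 differences of replicate 1 and of replicate 2 had a Pearson r of 0.07. At transcript level 503 recurred (3.18%), 272 higher (1.72%) and 231 lower (1.46%), against 423 in opposite directions, with an r of 0.04. The libraries correlated at 0.948 within PR36, 0.943 within PA36, 0.944 between the replicate 1 libraries and 0.950 between the replicate 2 libraries (log2(TPM + 1), across genes).

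All 18 called genes lay past 1 in the same direction in both replicate numbers, which the fit made likely since it used the same libraries. Some of the largest recurring differences were not called in the fit over 7 libraries, whose estimate of spread also draws on the (G4C2)36 pair. Of the 20 genes with the largest smaller difference, 10 in each direction, 7 had (G4C2)36 libraries more than 1 apart, beside 6.2% of all genes tested.

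CG10570 and CG42502 had the largest of these exchanges and lie at the same place, 2L:18808694-18811252, on the same strand. CG10570 had 1354 and 1417 TPM in PR36, against 27.2 and 25.3 in PA36, with differences of 5.59 and 5.75 on the log2 scale. CG42502 had 34.5 and 36.7 TPM in PR36, against 1699 and 1191 in PA36, with differences of -5.58 and -4.98. Neither was called (limma adjusted p = 0.747 and 0.527), and the (G4C2)36 libraries split, with CG10570 at 1630 and 26.03 TPM. Together the overlapping genes had 1389 and 1454 TPM in PR36, against 1726 and 1216 in PA36, and the genotypes overlapped in this sum.

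Among other recurring differences, CG17739 stood at 0 in each PR36 library, against 103 and 168 TPM in PA36 (limma adjusted p = 0.63). The (G4C2)36 libraries had 110 and 0 TPM. Obp56d, an odorant-binding protein, had 1314 and 1853 TPM in PR36, against 109 and 97.1 in PA36, with differences of 3.58 and 4.24 on the log2 scale. In (G4C2)36 it had 2952 and 79.5 TPM, and it was not called (limma adjusted p = 0.996). The mitochondrial ribosomal protein gene mRpS30 had 1.73 and 2.57 TPM in PR36, against 27.4 and 27.3 in PA36 (limma adjusted p = 0.211).

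In a fit of the PR36 and PA36 libraries alone, these 5 genes were called, with limma adjusted p of 0.0013 for CG10570, 0.0032 for CG42502, 0.0032 for CG17739, 0.011 for Obp56d and 0.024 for mRpS30. That fit called 17 genes in all, 12 of them among the 18. The 6 it did not call were hpRNA:CR33940, Su(fu), Fdh, S6kII, CG7084 and Eh, with limma adjusted p between 0.053 and 0.11.

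The rolled (rl) gene encodes ERK, the kinase upstream of S6kII. It had 9.31 and 12.7 TPM in PR36, against 0.521 and 0.284 in PA36, with differences of 2.76 and 3.41 on the log2 scale, and missed the threshold (limma adjusted p = 0.0843). CG17816 had 32.6 and 16.6 TPM in PR36, against 2.098 and 0.433 in PA36 (limma adjusted p = 0.0634). The microRNA gene mir-4956 had 0.185 and 0.188 TPM in PR36, against 23.4 and 73.3 in PA36 (limma adjusted p = 0.787). It lies within the sex determination gene Sxl, which had 86.7 and 68.998 TPM in PR36, against 51.6 and 69.6 in PA36.

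Genes that moved in opposite directions included very large values, and are named here after their values were seen. CG44195 had 296 and 0.0917 TPM in PR36, against 0.0744 and 307 in PA36, so that its differences were 8.11 in replicate 1 and -8.14 in replicate 2. The sodium channel auxiliary gene Teh2 had 25.2 and 0.451 TPM in PR36, against 0.437 and 22.4 in PA36. Syp, which encodes an RNA-binding protein, showed the reverse, with 0.202 and 27.4 TPM in PR36, against 17.5 and 0.184 in PA36. Values near 0 in 1 library of each genotype occurred here in either replicate.

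**Figure D3:**
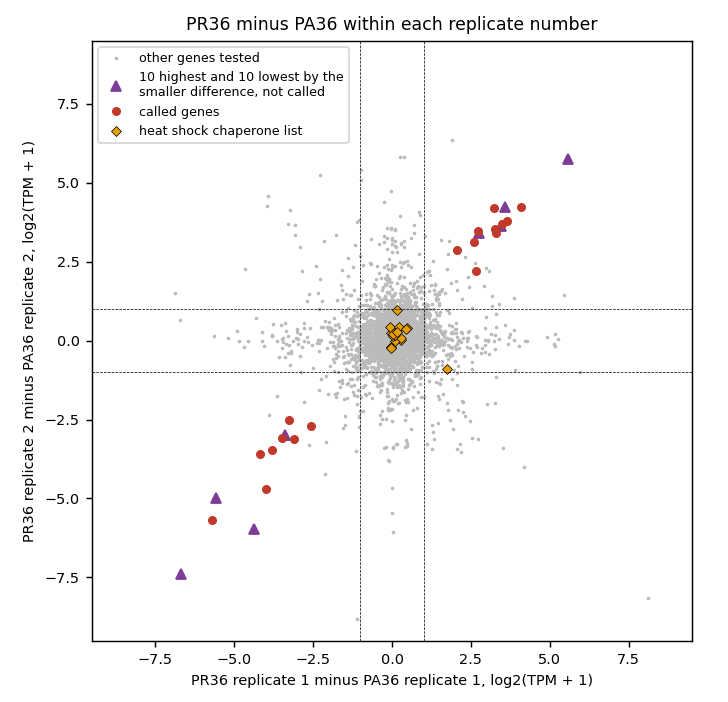
Each point is 1 of 9287 genes, with the PR36 minus PA36 difference of log2(TPM + 1) in replicate 1 on the x axis and in replicate 2 on the y axis, and dashed lines at 1 and -1. Called genes (red) lie in the upper right and lower left corners, while heat shock genes (orange) lie within the dashed lines, apart from Hsp70Bb at 1.73 and -0.89.

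Heat shock genes differed by replicate number far more than by genotype. Both replicate 1 libraries lay above both replicate 2 libraries for every list member except Hsp70Bc, which had 0.424 and 1.02 TPM in PR36, against 0.178 and 0.907 in PA36. All 17 members of the list (chaperones, their cofactors and the heat shock RNA Hsromega) were tested, 0 were called, 0 had an unadjusted p below 0.05 and 0 lay past 1 in both replicate numbers. The summed level of the list was 9590 TPM in PR36 replicate 1 and 863 TPM in PR36 replicate 2, against 7980 and 736 in PA36. The 6 Hsp70 genes, inducible chaperones that are nearly silent in unstressed flies, summed to 4339 and 16.8 TPM in PR36, against 3134 and 14.95 in PA36. In (G4C2)36 they summed to 355 and 339 TPM, and in UPF1 RNAi to 32.1 TPM. The Hsp70 genes are near-identical copies, so their single values are uncertain.

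Hsp26, a small heat shock protein gene, had 976 and 20.9 TPM in PR36, against 871 and 10.2 in PA36. Hsp83, the fly Hsp90, had 1199 and 289 TPM in PR36, against 1115 and 256 in PA36. DnaJ-1, a cochaperone of Hsp70, had 737 and 107 TPM in PR36, against 720 and 85.8 in PA36. In each case the spread between replicates exceeded the difference between genotypes. Within replicate number the list's median difference was 0.10 in replicate 1 and 0.20 in replicate 2, beside 0.12 and 0.12 over all genes tested.

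For Hsp70Aa the log2 fold change of 0.43 had an SE of 2.99, so the fit could not resolve a change of several units for these genes. Hsp70Bb differed by 1.73 in replicate 1 and -0.89 in replicate 2, at 97.7 and 0.857 TPM in PR36, against 28.7 and 2.44 in PA36. The replicate number was shared by few other genes. Past 1 on the log2 scale, 61 genes were higher in replicate 1 than in replicate 2 in both genotypes and 60 were lower. Beside the chaperones these include Pepck, an enzyme of glucose synthesis, at 149 and 4.504 TPM in PR36, against 112 and 10.4 in PA36, and the stress peptide TotC at 329 and 44.7 TPM in PR36, against 188 and 48.6 in PA36. Lower in replicate 1 were Sap-r, a lysosomal saposin precursor, with 6.02 and 69.5 TPM in PR36, against 13.5 and 472 in PA36, and the proteasome subunit Prosalpha1, with 2.90 and 15.9 TPM in PR36, against 9.40 and 43.2 in PA36.

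**Figure D4:**
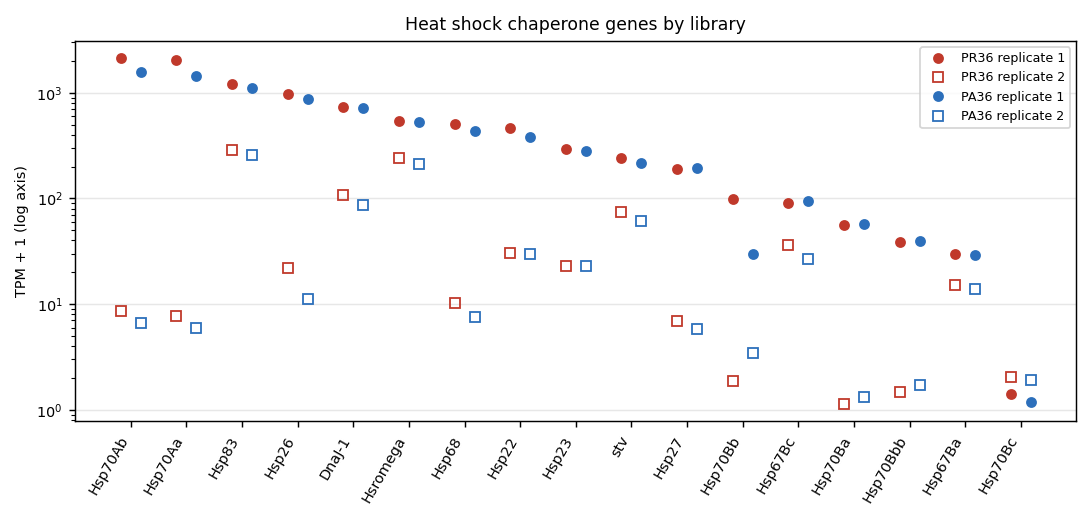
TPM + 1 on a log axis is shown for the 17 heat shock genes, with PR36 in red left of PA36 in blue, filled circles for replicate 1 and open squares for replicate 2. The filled circles of both genotypes lie far above the open squares for Hsp70Aa, Hsp70Ab, Hsp26 and Hsp68. For these 4 genes the genotypes differ less within a replicate number than the replicates differ within a genotype.

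Gene lists for pathways linked to dipeptide repeats, for stress responses and for the cell types of a head were described by counts and medians. Over the lists, 681 distinct genes were tested and 9 were called (1.32%, beside 0.194% of all genes). Since the lists were drawn up with results of these data known, neither that share nor the list counts at an unadjusted p below 0.05 are support. Over all genes tested, 3.39% reached that level. Each list with a called gene had 1, except the one-carbon list with 2, and Arc1 stands in 2 lists. List medians are given beside the median of 0.13 over all genes.

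For NMD, of 4 reported targets Arc1 was called and the others were not. Gadd45, a stress gene kept low by NMD in flies, had 38.6 and 37.4 TPM in PR36, against 15.1 and 18.3 in PA36. Its libraries did not overlap, and the log2 fold change was 1.15 (SE 0.27, limma adjusted p = 0.47). Oda and the sex determination gene tra differed by 0.08 and 0.05 on the log2 scale. Upf1, the NMD helicase, had 18.6 and 19.6 TPM in PR36, against 10.3 and 19.1 in PA36 (limma adjusted p = 0.996).

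Of 9 NMD and exon junction factors 0 were called, and 0 had an unadjusted p below 0.05. Their log2 fold changes ran from -0.16 for tsu, a core exon junction protein, to 0.44 for nonC, the fly Smg1 kinase, with a median of 0.21. Upf2 had 8.62 and 7.28 TPM in PR36, against 5.73 and 6.62 in PA36, and Upf3 had 9.23 and 12.0 TPM in PR36, against 8.54 and 8.37 in PA36. Smg5 had 44.0 and 57.0 TPM in PR36, against 44.2 and 55.8 in PA36, and Smg6 had 43.4 and 46.5 TPM in PR36, against 37.3 and 43.6 in PA36. The exon junction proteins mago, tsu and btz ranged from 20.3 to 30.9 TPM in PR36, against 19.1 to 30.6 TPM in PA36.

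Stress pathways of the ER had 1 call. Of 21 ER folding and unfolded protein response genes Cnx99A was called, and the median was 0.09. Of the 21, 19 lay above 0, beside 6736 of 9287 over all genes tested. Edem1, which helps to send misfolded glycoproteins to degradation, had 24.4 and 22.2 TPM in PR36, against 15.9 and 18.7 in PA36 (log2 fold change 0.41, limma adjusted p = 0.996). Of 14 genes of the integrated stress response 0 were called, with 1 at an unadjusted p below 0.05. Of all genes tested, 0.194% were called, and at that share lists of this size are likely to hold 0 calls. The counts thus say little about these pathways. Xrp1, a transcription factor of cell stress, had 240 and 251 TPM in PR36, against 158 and 184 in PA36 (log2 fold change 0.52, limma adjusted p = 0.996).

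Cell structures that arginine-rich dipeptides bind showed no called gene. The counts were 0 of 19 for the nucleolus, 0 of 30 for the nuclear pore and transport, 0 of 19 for stress granule and ALS-linked RNA-binding proteins, 0 of 34 for translation factors and 0 of 84 for cytosolic ribosomal proteins. Of all genes tested, 0.194% were called, and at that share lists of this size are likely to hold 0 calls, so the counts say little about these structures. An unadjusted p below 0.05 was reached by 1 gene of the nuclear pore list, Nup153, and by 1 translation factor, eIF6, which had 33.9 and 40.9 TPM in PR36, against 25.7 and 18.3 in PA36. Nopp140, a nucleolar scaffold, had 18.2 and 24.0 TPM in PR36, against 11.5 and 15.4 in PA36 (log2 fold change 0.61, limma adjusted p = 0.996). Nup153, a protein of the nuclear basket, had 17.6 and 20.4 TPM in PR36, against 9.85 and 13.3 in PA36 (log2 fold change 0.68, limma adjusted p = 0.996). TBPH, the fly TDP-43, had 57.0 and 68.6 TPM in PR36, against 46.2 and 59.2 in PA36, and its libraries overlapped.

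The ribosomal protein list had a median of -0.02, or -0.15 relative to all genes, which became -0.16 with median-of-ratios rescaling and -0.04 with quantile normalization. RpL34a had 114.7 and 142 TPM in PR36, against 168 and 179 in PA36 (log2 fold change -0.44, limma adjusted p = 0.996). Oxidative phosphorylation genes had a median of 0.02 over 66 members, with 0 called and 1 at an unadjusted p below 0.05, and by replicate number their medians were -0.21 and 0.26. No direction can thus be given for that list.

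Degradation pathways had 1 call, Cp1, among 6 cathepsins, and 0 among 34 proteasome genes (0 at an unadjusted p below 0.05) and 23 autophagy genes (1 at that level). Atg17, part of the complex that starts autophagy, had 42.4 and 37.5 TPM in PR36, against 19.9 and 22.1 in PA36 (log2 fold change 0.89, limma adjusted p = 0.442). Dronc, the initiator caspase, had 9.36 and 9.18 TPM in PR36, against 17.7 and 17.3 in PA36 (log2 fold change -0.85, limma adjusted p = 0.612). The replicates of each genotype were close for both genes and the genotypes did not overlap.

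Markers of neurons, photoreceptors, glia, fat body, hemocytes and muscle gave 0 calls of 76 tested. An unadjusted p below 0.05 was reached by 6 of them, beside 3.39% of all genes tested. The active zone gene brp had 0.134 and 10.6 TPM in PR36, against 9.62 and 18.9 in PA36 (log2 fold change -2.01, limma adjusted p = 0.996), and its libraries overlapped. The calcium channel gene cac, of the synapse list, had 3.04 and 10.3 TPM in PR36, against 11.5 and 30.5 in PA36 (log2 fold change -1.56, limma adjusted p = 0.996). For brp 9 transcripts are listed against 14 in the reference, and for cac 10 against 18, so both sums can be partial. Most of their lists went the other way, with 10 of 12 neuron markers and 26 of 30 synapse genes above 0 (medians 0.18 and 0.19). Over all genes tested, 6736 of 9287 lay above 0. The photoreceptor channel trpl had 591 and 597 TPM in PR36, against 958 and 835 in PA36, while its partner trp had 933 and 902 TPM in PR36, against 790 and 630 in PA36. The lipoprotein gene apolpp, of the fat body, had 339 and 149 TPM in PR36, against 949 and 943 in PA36 (log2 fold change -2.07, limma adjusted p = 0.208). It has 2 listed transcripts against 4 in the reference. Of 11 fat body and yolk markers tested, 8 lay above 0, with a median of 0.21. The muscle myosin Mhc had 210 and 227 TPM in PR36, against 130 and 85.8 in PA36 (log2 fold change 1.04, limma adjusted p = 0.536).

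Neuropeptide and hormone genes had 1 call, Eh, of 33 tested, and 7 had an unadjusted p below 0.05, beside 3.39% of all genes tested. Of 30 synapse genes 0 were called, with 1 at that level. Orcokinin, a peptide of neurons and gut, had 15.8 and 25.0 TPM in PR36, against 68.0 and 83.1 in PA36 (log2 fold change -1.87, limma adjusted p = 0.191). Proctolin (Proc), a peptide that acts on muscle, had 105 and 102 TPM in PR36, against 59.6 and 53.02 in PA36 (log2 fold change 0.87, limma adjusted p = 0.662). Arc2, a paralog of Arc1, had 8.03 and 11.4 TPM in PR36, against 3.81 and 2.85 in PA36 (log2 fold change 1.30, limma adjusted p = 0.536). Of the 8 activity-regulated genes tested, Arc1 was called, and the list's median was 0.07.

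Immune, detoxification and cuticle genes gave 0 calls. An unadjusted p below 0.05 was found in 5 of 29 immune peptides, 1 of 39 glutathione transferases and antioxidants and 3 of 32 cuticle proteins, beside 3.39% of all genes. The immune-induced peptide gene IM23 had 39.7 and 33.7 TPM in PR36, against 18.5 and 18.4 in PA36 (log2 fold change 0.95, limma adjusted p = 0.47), and CG5791 had 24.5 and 25.6 TPM in PR36, against 13.2 and 12.3 in PA36 (log2 fold change 0.92, limma adjusted p = 0.404). The cuticle list had a median of 0.37, at -0.25 in replicate 1 and 0.72 in replicate 2, so its direction differed between replicate numbers.

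In the pathways of the called signalling genes, no further member was called. Of 12 Hippo genes wts was lower, and sav, the scaffold that couples Hippo to Warts, had 2.05 and 1.198 TPM in PR36, against 7.77 and 6.98 in PA36 (log2 fold change -1.69, limma adjusted p = 0.442). Su(fu) was the lower one of 12 Hedgehog genes, whose median was 0.20. Of 17 eye pigment genes v was called and the median was 0.22. In the list for one-carbon, alcohol and aldehyde metabolism, Fdh was higher and sgll lower of 10 tested, and Shmt, which passes carbon from serine to folate, had 53.002 and 61.9 TPM in PR36, against 88.7 and 94.3 in PA36 (log2 fold change -0.67, limma adjusted p = 0.996).

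**Figure D5:**
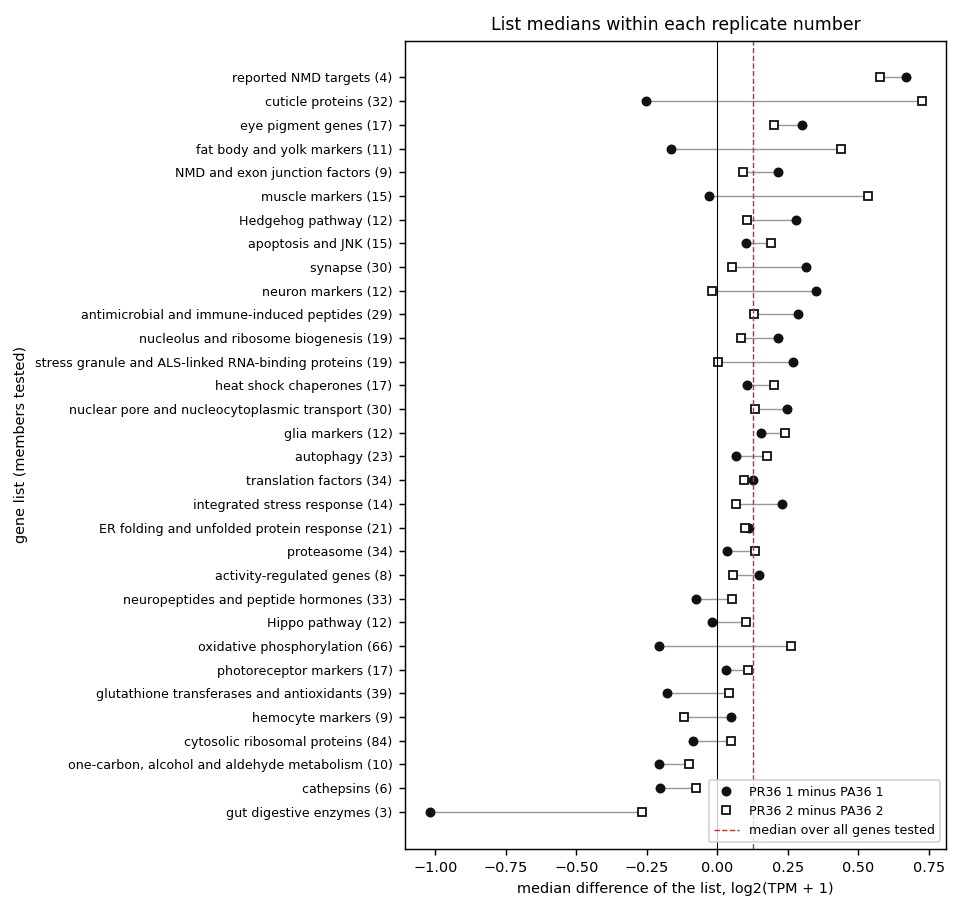
The plot gives the median PR36 minus PA36 difference on the log2(TPM + 1) scale for each list with at least 3 members tested, for replicate 1 (filled circles) and replicate 2 (open squares), with the median over all genes tested, 0.13, as a dashed line. For oxidative phosphorylation the replicate numbers lie on opposite sides of 0, at -0.21 and 0.26. For the reported NMD targets both lie above 0.5, but that list has 4 genes, of which Oda and tra had log2 fold changes of 0.08 and 0.05.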

How the data were processed

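The authors deposited 1 table of TPM values for 26309 transcripts from fly heads. The submitters' processing notes name BDGP6 as the build and list HISAT, HISAT2 2.1 and bcl2fastq. How TPM were estimated, on which annotation and with which strand setting, is not given in the sources used here. In the file, the header has 10 names for 11 cells a line, and names were read from the left. This left 1 value column without a name, which was not used, and each library is identified only through this reading. Of the transcripts, 99.4% were found in the reference annotation (BDGP6, Ensembl release 115), which gave coordinates (1-based), biotypes and coding lengths. Gene values are sums over listed transcripts (13656 genes). Of the 13545 genes found in the reference, 11597 had every reference transcript listed. For the others the sum can leave out part of the gene.

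Features averaging 1 TPM or more in the 7 libraries entered limma 3.58.1 (R 4.3.3) on log2(TPM + 1), with 1 coefficient per genotype, an intensity trend, 3 residual degrees of freedom, two-sided tests and Benjamini-Hochberg adjustment over all features of a comparison. Prior degrees of freedom were 4.14 for genes and 2.03 for transcripts. Transcript use was tested with limma's diffSplice. Differences within replicate number have no test.

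The comparison, the 34 gene lists (856 entries, 43 not listed in the table) and the alternatives were chosen with earlier results of these data known. Named were every called gene, the 10 highest and 10 lowest called transcripts whose higher genotype averaged at least 5 TPM, the extremes of transcript use and of the within-replicate differences, the called and most separated list members, and all heat shock and NMD genes. Cbp80, Gcn2, Nup62, FBtr0078174 of eRF1, the other genes that followed the replicate number and those that moved in opposite directions were picked as examples after their values were seen. Of the genes that traded transcripts, 1 is counted but not reported here. Alternatives covered pseudocount, filter, scaling, limma options, the replicate number as a block, PR36 and PA36 fitted alone, and libraries left out. Joins and figures used Python 3.11.15, pandas 2.3.3, numpy 2.4.6 and matplotlib 3.10.9.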

Additional observations from a re-analysis of the deposited data

How the results depend on the processing

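No called value changed sign under any alternative run. The 18 gene calls became 7 without a filter on low values, 11 with a mean of at least 5 TPM, 28 with limma's robust option, and between 13 and 20 with other pseudocounts, scalings, no trend or the PR36 and PA36 libraries alone. Leaving out 1 library gave 46 to 60 calls, leaving out replicate 1 of both genotypes 191 and replicate 2 of both 212. These last fits have 1 residual degree of freedom, from the (G4C2)36 pair, and an infinite prior. They give genes of similar level the same spread, so a call there depends on the size of the difference alone and is no support for the 18 genes. With a pseudocount of 0.1, CG12395, Uhg1, hpRNA:CR33940, mir-281-2, Eh and CG18731 were not called, and with median-of-ratios rescaling sgll, hpRNA:CR33940, Su(fu) and Eh were not. The 50 transcript calls became 27 with a mean of at least 5 TPM and 26 on the PR36 and PA36 libraries alone. Leaving out 1 library gave 0 to 43, of which 0 to 8 were among the 50, and leaving out replicate 1 or replicate 2 of both gave 0, with 1002 and 1050 transcripts at an unadjusted p below 0.05. The 111 transcript-use calls became 198 to 262 with 1 library left out, 267 without replicate 1 of both and 214 without replicate 2 of both. Called list members, 9, became 2 without a filter, 10 to 14 with 1 library left out, 21 without replicate 1 of both and 18 without replicate 2 of both. Genes higher in both replicate numbers, 66, became 110 and 29 with pseudocounts of 0.1 and 5 and 41 with a mean of at least 5 TPM, and the 54 lower became 24 with a pseudocount of 5 and 33 with that filter. Transcripts higher in both, 272, became 443 and 101 with those pseudocounts and 141 with the filter, and the 231 lower became 101 with a pseudocount of 5 and 124 with the filter. The cause of these shifts was not tested.

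The replicate number was not treated as a pairing, since no label says that equal numbers mark a shared batch, and whether they do is unknown. Heat shock genes other than Hsp70Bc followed the number in both genotypes. Replicates deviated together only weakly across genes between PR36 and PA36 (r = 0.10, or 0.01 without the heat shock list), with r = -0.08 between PR36 and (G4C2)36 and -0.07 between PA36 and (G4C2)36. With the replicate number as a block, 33 genes were called, all 18 among them, 7 transcripts, all among the 50, and 86 transcripts in transcript use, 84 of them among the 111.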
